A study of Homo sapiens with 6 samples.

Results

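AP-1 is a family of basic leucine zipper (bZIP) transcription factors, and 10 of its genes were followed here in KO52 cells that made a peptide interfering with AP-1 or with C/EBP. The genes were FOS, FOSB, FOSL1, FOSL2, JUN, JUNB, JUND, ATF3, BATF and BATF3, chosen by name as members of the family and matched by gene ID among the 60612 IDs of the count files. Of these 10 genes, 9 had enough reads to enter the tests, which covered 15395 genes, and BATF3 did not. KO52 is an established acute myeloid leukaemia line, labelled as a CEBPA double mutant. All cells carried a doxycycline-inducible lentiviral vector, and the 3 groups of 2 libraries differed in its insert. The dnFOS group carried a dominant negative FOS peptide, the dnCEBP group carried a dominant negative C/EBP peptide, and the EV group carried the empty vector. According to the study's methods the empty vector expressed GFP, and GFP positive cells were sorted after doxycycline before RNA was taken.

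AP-1 proteins bind DNA as pairs joined by their leucine zippers. FOS proteins cannot pair with each other and need a JUN partner, whereas JUN proteins can also pair among themselves, and ATF3, BATF and BATF3 join as further partners of the JUN proteins. Several of the genes are immediate early genes, transcribed within minutes of a growth factor or stress signal, and in myeloid cells the family acts in monocyte and macrophage gene programmes and in the signalling response of leukaemic blasts. The dnFOS peptide keeps a FOS leucine zipper, takes up the partners of FOS and leaves the pair unable to bind DNA. The question asked here is whether the genes of the family were themselves expressed at other levels when the peptides were made.

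With dnFOS, JUNB, ATF3 and BATF were lower than in EV, and no member was called higher. JUNB was 1.64-fold lower, ATF3 2.81-fold lower and BATF 1.45-fold lower. These were 3 of the 9 tested members, where 15% of all 15395 genes were called, 7.76% lower and 7.24% higher. Neither FOS, the gene from which the peptide is named, nor FOSB, FOSL1, FOSL2, JUN or JUND passed the test in that comparison. With dnCEBP no member was called against EV, where 1.07% of all genes were. Between the peptides BATF alone was called, 1.41-fold lower with dnFOS, where 14.7% of all genes were called and 7.84% were lower. A gene is called where edgeR's quasi-likelihood test gave an adjusted p under 0.05 over all genes tested. Separate or overlapping libraries are given below as description only. The share of all genes whose libraries separate between groups was not counted.

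The windows in front of the genes that were lower with dnFOS, and of JUN and JUND for comparison within one subfamily, are shown first. Sequences are those of RefSeq on GRCh38.p14, read 5′ to 3′ on the gene's own strand and shown only as far as the first base of the GENCODE gene model, except for JUN, whose bases lie inside that model. Of the 10 genes 8 had a window, and FOSL1 and BATF3 were not matched. Capitals mark a match to TGACGTCA, the cyclic AMP response element, or to TGACATCA, its variant known from the JUN promoter. For JUNB, chr19:12791236-12791485 on the plus strand is shown, for ATF3 chr1:212565157-212565333 on the plus strand, and for BATF chr14:75522219-75522424 on the plus strand. For JUND the window is chr19:18281623-18281872 on the minus strand. For JUN only the 30 bases around the match, chr1:58784096-58784125 on the minus strand, are given.
JUNB: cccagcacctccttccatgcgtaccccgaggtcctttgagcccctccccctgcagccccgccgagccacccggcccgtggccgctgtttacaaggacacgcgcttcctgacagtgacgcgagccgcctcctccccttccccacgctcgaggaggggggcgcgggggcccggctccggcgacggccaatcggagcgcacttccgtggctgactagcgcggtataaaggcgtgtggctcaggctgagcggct
ATF3: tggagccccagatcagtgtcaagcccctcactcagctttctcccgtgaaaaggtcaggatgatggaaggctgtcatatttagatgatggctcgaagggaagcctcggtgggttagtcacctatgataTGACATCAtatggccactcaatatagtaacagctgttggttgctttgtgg
BATF: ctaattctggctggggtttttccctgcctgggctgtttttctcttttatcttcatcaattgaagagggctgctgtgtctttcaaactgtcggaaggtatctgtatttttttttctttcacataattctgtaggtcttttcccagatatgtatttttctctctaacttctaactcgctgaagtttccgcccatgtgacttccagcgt
JUND: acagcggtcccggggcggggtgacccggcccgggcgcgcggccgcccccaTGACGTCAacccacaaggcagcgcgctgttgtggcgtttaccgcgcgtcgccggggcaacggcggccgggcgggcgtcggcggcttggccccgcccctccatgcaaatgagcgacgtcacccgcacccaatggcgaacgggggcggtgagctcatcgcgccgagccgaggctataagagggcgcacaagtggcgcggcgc
JUN: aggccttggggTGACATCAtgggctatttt

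In the 250 bases before the RefSeq start of each gene, 4 motifs were searched on both strands. They were TGAGTCA, the AP-1 site, TGACGTCA, TGACATCA and TTGCNNAA, a C/EBP core, and no 2 matches shared bases. ATF3 held TGACATCA from 123 to 116 bases before the start of its first of 2 entries, JUN held it from 67 to 60 bases before the start, and JUND held TGACGTCA from 200 to 193 bases before. No match lay in the windows of FOS, FOSB, FOSL2, JUNB or BATF. Among all 35116 promoter windows of this length, 4.2% held TGAGTCA, 1.65% TGACGTCA, 2.37% TGACATCA and 9.05% TTGCNNAA. Of the 3 called genes, therefore, ATF3 had one of these letter strings in its window and JUNB and BATF had none, which describes the letters only.

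Total counts per library ran from 9862994 to 27663179, and both dnFOS libraries, with 14583615 and 9862994 counts, were the shallowest. A count of 3 corresponded to 0.108 to 0.304 CPM, the count scaled to a common library total. The first principal component of all genes held 40.1% of the variance and placed the dnFOS libraries at 26.6 and 49.6, apart from the other 4, which lay between -23.4 and -13.7. Nothing in the labels ties the 2 libraries of a group to separate cultures, so the p-values measure the spread between these libraries, which may be technical. The 3 groups shared the same spread for each gene. Departure of the 2 libraries of a group from counting error was largest in dnFOS. Its chi-square per degree of freedom was 15.8, against 9.33 in dnCEBP and 8.27 in EV. The p-values do not allow for a larger spread in dnFOS alone, and its effect on the calls was not tested. The fit also drew each gene's spread toward that of all genes. That part weighed a median of 26.4 degrees of freedom, against 3 from the gene itself. Of 8 myeloid blast markers, 7 were tested, and their summed level was 1005 to 1066 CPM in EV, 935 to 943 in dnCEBP and 789 to 812 in dnFOS. FLT3 was the marker at or near the floor. Of 12 markers of other cell types, MS4A1 was at 0 in every library, and COL1A1 was at 0 in EV and dnFOS. CD3D was present, however, at 115 to 122 CPM in EV, and the 12 markers summed to 263 to 276 CPM in EV, 283 to 284 in dnCEBP and 223 to 238 in dnFOS. The blast marker sums were thus below those of EV with both peptides. Sums of the other markers were below EV with dnFOS and above EV with dnCEBP. The part of these sums in the results below was not tested.

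Per kilobase of exon, BATF had the highest level of the family in EV, at 16.8 ± 0.383 CPM per kilobase (mean ± SD, n = 2). BATF pairs with JUN proteins and is best known from lymphocytes. JUND followed at 11.4 ± 0.609, FOS at 7.90 ± 1.51, JUNB at 6.88 ± 0.118 and FOSL2 at 5.82 ± 0.0606 CPM per kilobase. Lower down stood JUN at 2.37 ± 0.198, FOSB at 2.27 ± 0.519, FOSL1 at 1.70 ± 0.400, ATF3 at 0.527 ± 0.121 and BATF3 at 0.119 ± 0.0496. The EV libraries of FOS and JUNB overlapped, as did those of JUN and FOSB and those of FOSB and FOSL1. The libraries of all other neighbours in this order did not overlap. The order depends on the exon length, which at 0.980 kilobases was shortest for BATF. By CPM not divided by length, BATF had 16.5 in EV, behind FOSL2 at 41.7, FOS at 25.6 and JUND at 21.2. In dnFOS BATF and JUND came close together, at 11.5 ± 1.93 and 10.9 ± 0.842 CPM per kilobase.

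**Figure D1:**
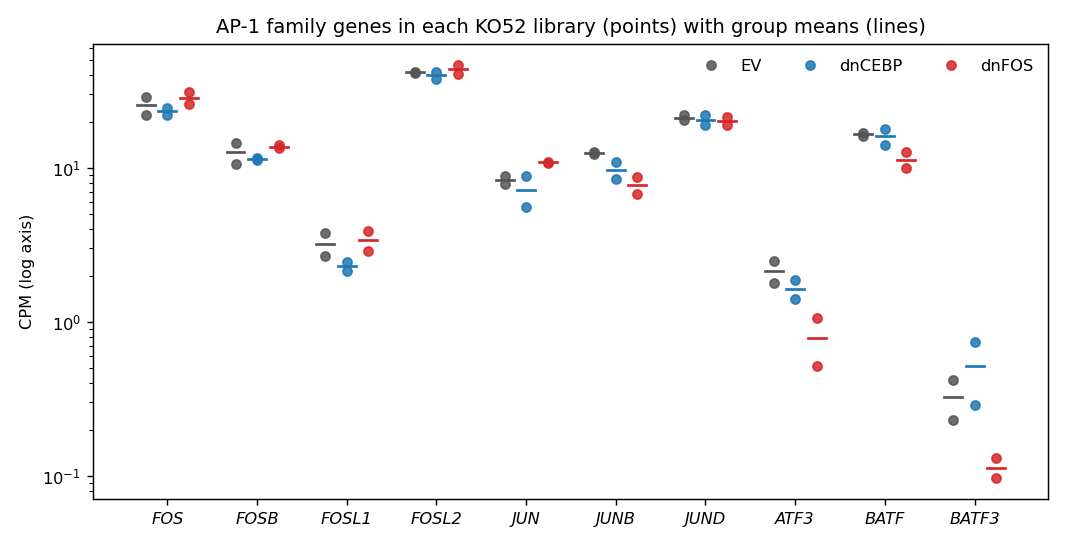
Level of each of the 10 genes in CPM, on a log axis, in each of the 6 libraries (points, coloured by group) with the group mean (line). In dnFOS both libraries of JUNB, ATF3 and BATF lie below both EV libraries, and both libraries of JUN lie above them. The share of all genes that separate in this way was not counted, and JUN was not called.

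The FOS subunits have the zipper that needs a JUN partner, and none of their genes was called in any comparison. FOS (ENSG00000170345, chr14:75278774-75282230 on GRCh38, plus strand), the classical immediate early subunit, had 22.1 and 29 CPM with EV, 24.6 and 22.1 with dnCEBP and 30.9 and 26.0 with dnFOS. The groups overlapped except for dnFOS against dnCEBP. Its log2 fold change was 0.16 ± 0.14 (SE) in dnFOS against EV, with an edgeR adjusted p of 0.488 and a 95% interval from -0.12 to 0.44. The dnFOS insert derives from FOS, and gene counts cannot tell reads of the vector from those of the gene, so the FOS value in dnFOS may include vector reads. That part was not tested. In dnCEBP against EV the log2 difference of FOS was -0.13 ± 0.13 (edgeR adjusted p = 0.777), and in dnFOS against dnCEBP it was 0.29 ± 0.14 (edgeR adjusted p = 0.176).

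FOSB (ENSG00000125740, chr19:45467995-45475179, plus strand), a close relative of FOS that is also induced early, had 10.6 and 14.6 CPM with EV, 11.2 and 11.6 with dnCEBP and 13.5 and 14.0 with dnFOS. EV replicate 1 was the lowest of the 6 libraries and EV replicate 2 the highest, so both peptide groups lay inside the EV range. The log2 fold change was 0.13 ± 0.17 in dnFOS (edgeR adjusted p = 0.688) and -0.14 ± 0.17 in dnCEBP (edgeR adjusted p = 0.802). Without EV replicate 1 the dnFOS value turned to -0.094, and without EV replicate 2 the dnCEBP value turned to 0.10. The same libraries turned the direction of FOS, to -0.024 in dnFOS and 0.075 in dnCEBP.

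FOSL1 (ENSG00000175592, chr11:65892049-65900573, minus strand), which encodes FRA1, was the scarcest FOS subunit, with 30 to 82 counts per library. It had 2.68 and 3.75 CPM with EV, 2.14 and 2.46 with dnCEBP and 3.90 and 2.90 with dnFOS. Both dnCEBP libraries lay below the others, and the log2 difference from EV was -0.48 ± 0.29 (edgeR adjusted p = 0.545), with an interval from -1.08 to 0.11. In dnFOS it was 0.10 ± 0.30 (edgeR adjusted p = 0.862), and it turned to -0.15 without dnFOS replicate 1 and to -0.12 without EV replicate 1. FOSL2 (ENSG00000075426, chr2:28392448-28417312, plus strand), which encodes FRA2, was the most abundant by CPM, with 41.4 and 42.0 with EV, 42.0 and 37.5 with dnCEBP and 40.4 and 46.8 with dnFOS. All 3 groups overlapped. Its log2 fold change against EV was 0.06 ± 0.11 in dnFOS (edgeR adjusted p = 0.772) and -0.07 ± 0.11 in dnCEBP (edgeR adjusted p = 0.873), and its dnFOS interval, from -0.17 to 0.29, was the narrowest of the family. Without dnFOS replicate 2 the dnFOS value was -0.045, and without dnCEBP replicate 2 the dnCEBP value was 0.011.

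Among the JUN subunits JUNB was called lower in dnFOS, and JUN and JUND were not called. JUNB (ENSG00000171223, chr19:12791496-12793315, plus strand), a single-exon immediate early gene whose product is a weaker activator than JUN, had 12.4 and 12.7 CPM with EV, 11 and 8.49 with dnCEBP and 6.76 and 8.69 with dnFOS. Both dnFOS libraries lay below both EV libraries, and so did both dnCEBP libraries, the lower of which fell inside the dnFOS range. JUNB fell from 12.5 ± 0.214 CPM in EV to 7.73 ± 1.36 in dnFOS (mean ± SD, n = 2), its log2 fold change being -0.71 ± 0.19 with an edgeR adjusted p of 0.0105. Without dnFOS replicate 1 the adjusted p was 0.142 at -0.53, and once the trend with GC content and gene length was taken out it was 0.12 at -0.42. In dnCEBP the log2 difference was -0.36 ± 0.17, with an unadjusted p of 0.0501 in edgeR and an adjusted p of 0.419. JUNB stood at -0.36 ± 0.19 in dnFOS against dnCEBP (edgeR adjusted p = 0.236), and was called there under 0 of 14 alternatives. Its exons overlap those of HOOK2, on the opposite strand, by 259 bases, and the use of strand in counting was not given in the sources used here, so the value of JUNB is uncertain to that extent. HOOK2 had 3.69 and 7.73 CPM with EV, 4.21 and 4.10 with dnCEBP and 5.20 and 4.93 with dnFOS, and its log2 fold change in dnFOS was -0.16 ± 0.27 (edgeR adjusted p = 0.75).

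JUN (ENSG00000177606, chr1:58780788-58784327, minus strand), the founding subunit, had 7.88 and 8.87 CPM with EV, 8.8 and 5.55 with dnCEBP and 10.8 and 10.9 with dnFOS. Both dnFOS libraries lay above the other 4. Its log2 difference from EV was 0.37 ± 0.20 (interval -0.04 to 0.79), which did not pass (edgeR adjusted p = 0.23). Against dnCEBP it was 0.58 ± 0.20 with an edgeR adjusted p of 0.0514, just outside the threshold, and it passed under 6 of 14 alternatives. That value rested on dnCEBP replicate 2, the lowest library, since without dnCEBP replicate 1 it was 0.97 with an adjusted p of 0.00711 in edgeR, and without dnCEBP replicate 2 it was 0.30. In dnCEBP against EV, JUN stood at -0.21 ± 0.20 (edgeR adjusted p = 0.738) and turned to 0.072 without dnCEBP replicate 2.

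JUND (ENSG00000130522, chr19:18279760-18281622, minus strand), the subunit that most resting cells express steadily, had 22.0 and 20.4 CPM with EV, 21.9 and 19.0 with dnCEBP and 19.1 and 21.3 with dnFOS. All 3 groups overlapped. Its log2 fold change was -0.08 ± 0.14 in dnFOS (edgeR adjusted p = 0.77), with an interval from -0.36 to 0.21, and -0.05 ± 0.13 in dnCEBP (edgeR adjusted p = 0.917). The sign of these differences depended on the scaling. JUND stood at 0.023 in dnFOS with library totals in place of TMM factors, and at 0.30 in dnFOS and 0.24 in dnCEBP with the trend on GC content and length removed, none of them called.

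**Figure D2:**
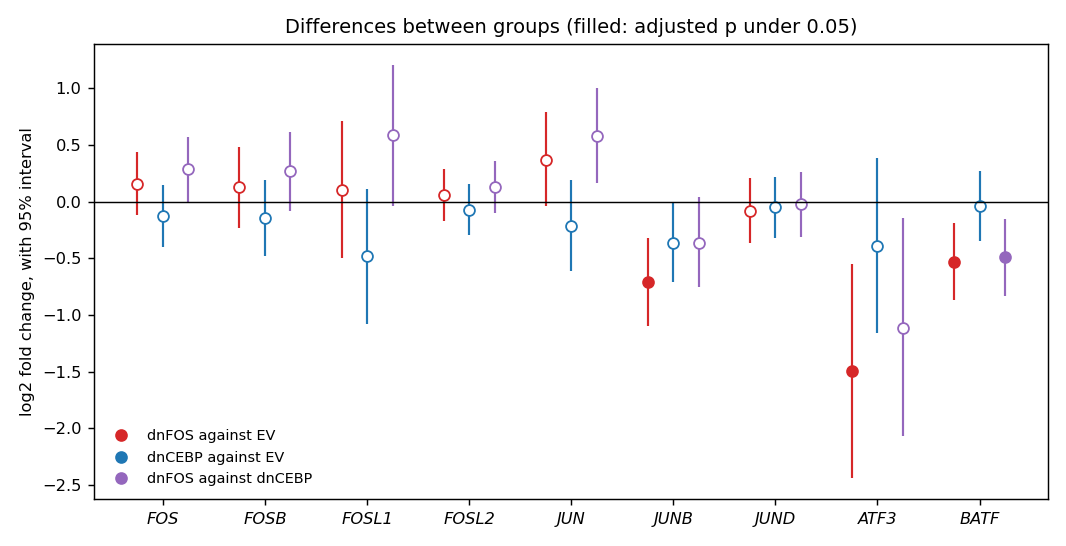
Log2 fold change of the 9 tested genes in the 3 comparisons, with the 95% interval of the fit (bars), filled where the adjusted p was under 0.05. JUNB, ATF3 and BATF are filled for dnFOS against EV, BATF also for dnFOS against dnCEBP, and every dnCEBP against EV point is open and below 0.

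The makeup of the JUN family differed between the groups of libraries. JUNB held 32.6% and 34.1% of the summed JUN, JUNB and JUND level per kilobase with EV, 29.7% and 28.4% with dnCEBP and 21.8% and 24.7% with dnFOS. JUN held 10.7% and 12.3% with EV, 12.3% and 9.55% with dnCEBP and 17.9% and 16.0% with dnFOS. The dnFOS libraries were thus the lowest for JUNB and the highest for JUN. JUND held 56.7% and 53.7% with EV, 58.0% and 62.0% with dnCEBP and 60.3% and 59.3% with dnFOS, so JUND was the main JUN transcript in all 6 libraries. The ratio of JUNB to JUN per kilobase, taken within each library and so free of library scaling, was 3.05 and 2.78 with EV, 2.43 and 2.98 with dnCEBP and 1.22 and 1.55 with dnFOS. These shares use the same counts as the tests above and were not tested again. The shares and the ratio still hold any trend of a library with GC content and length. JUNB has 64.9% GC, JUN 56.7% and JUND 69.7%. With that trend removed, JUNB stood at -0.42, not called, and JUND at 0.30 in dnFOS against EV. The shares were not recomputed in that setting. The summed JUN family level itself was 20.9 and 20.4 CPM per kilobase with EV, 20.3 and 16.4 with dnCEBP and 17.0 and 19.3 with dnFOS.

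FOS held 42.9% to 48.5% of the summed level per kilobase over all 6 libraries, FOSL2 28.7% to 36.3%, FOSB 11.9% to 13.5% and FOSL1 6.84% to 10.5%. In each of these 4 genes the range of the dnFOS libraries overlapped that of EV. The FOSL1 share was 6.84% and 8.42% with dnCEBP against 8.92% and 10.2% with EV, which do not overlap, and this difference was not tested. The summed FOS family level was 15.9 and 19.5 CPM per kilobase with EV, 16.6 and 15.5 with dnCEBP and 19.7 and 18.6 with dnFOS. Without division by length FOSL2 rather than FOS was the largest, with 45.6% to 53.9% of the counts against 28.8% to 34.8% for FOS.

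**Figure D3:**
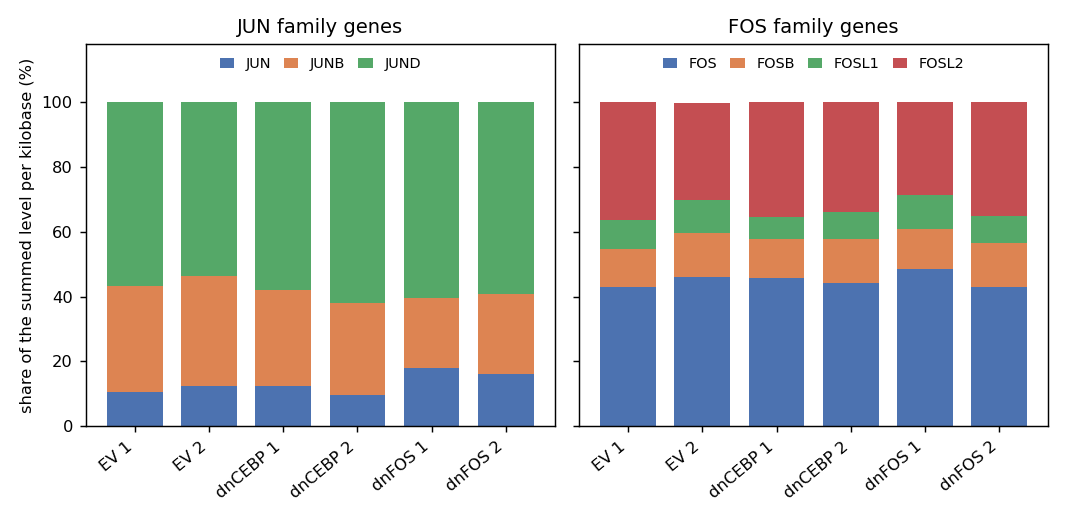
Share of each subunit in the summed level per kilobase of exon of the JUN family genes (left) and the FOS family genes (right), one bar per library. The JUNB segment is smallest and the JUN segment largest in the 2 dnFOS bars, whereas the FOS family segments overlap between EV and dnFOS.

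ATF3 (ENSG00000162772, chr1:212565334-212620777, plus strand), a stress-induced gene whose product mostly represses as a homodimer, had the lowest log2 fold change of the 9 tested genes in dnFOS against EV. It had 59 and 39 counts with EV, 38 and 39 with dnCEBP and 8 and 11 with dnFOS. In CPM it stood at 2.47 and 1.78 with EV, 1.40 and 1.88 with dnCEBP and 0.520 and 1.06 with dnFOS. Both dnFOS libraries lay below the other 4. The level fell from 2.13 ± 0.487 CPM in EV to 0.791 ± 0.383 in dnFOS (mean ± SD, n = 2), a log2 fold change of -1.49 ± 0.46 with an edgeR adjusted p of 0.0272 and a wide interval from -2.44 to -0.55. Without dnFOS replicate 1, the lower library, the value was -1.0 (adjusted p = 0.26 in edgeR), and without EV replicate 1 it was -1.23 (adjusted p = 0.191). By limma-voom the adjusted p was 0.0629, and DESeq2 gave no adjusted p for this low-count gene, with 0.0108 before adjustment. In dnCEBP the log2 difference was -0.39 ± 0.38 (edgeR adjusted p = 0.752), and dnFOS against dnCEBP was -1.11 ± 0.47 (edgeR adjusted p = 0.12).

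BATF (ENSG00000156127, chr14:75522425-75547015, plus strand) had 16.8 and 16.2 CPM with EV, 17.9 and 14.0 with dnCEBP and 12.6 and 9.95 with dnFOS. Both dnFOS libraries lay below the other 4, and the dnCEBP libraries enclosed those of EV. BATF fell from 16.5 ± 0.375 CPM in EV to 11.3 ± 1.89 in dnFOS (mean ± SD, n = 2), its log2 fold change being -0.53 ± 0.17 with an edgeR adjusted p of 0.0279. Against dnCEBP the value was -0.49 ± 0.17 with an edgeR adjusted p of 0.0435, and in dnCEBP against EV it was -0.04 ± 0.15 (edgeR adjusted p = 0.952). Against EV it was called under 8 of 14 alternatives, whereas JUNB was called under 12 of 14 and ATF3 under 10 of 13. The call against EV was lost without dnFOS replicate 2 (-0.39, edgeR adjusted p = 0.26), without EV replicate 1 (edgeR adjusted p = 0.123) and without EV replicate 2 (edgeR adjusted p = 0.0647). It was also lost with library totals (-0.44, adjusted p = 0.0865 in edgeR), with limma-voom (adjusted p = 0.054) and with the GC and length trend removed (-0.29, adjusted p = 0.203 in edgeR). Against dnCEBP it was lost without dnCEBP replicate 1 (-0.30, edgeR adjusted p = 0.386) and without dnFOS replicate 2 (-0.35, edgeR adjusted p = 0.318). It was lost there too with library totals (-0.37, adjusted p = 0.139 in edgeR), with the GC and length trend removed (-0.33, adjusted p = 0.118 in edgeR), with DESeq2 (adjusted p = 0.0727) and with limma-voom (adjusted p = 0.0763). With library totals and with the trend removed JUN was the called member in place of BATF (0.70 and 0.66, edgeR adjusted p = 0.0241 and 0.012).

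BATF3 (ENSG00000123685, chr1:212686418-212699985, minus strand), known as a factor of cross-presenting dendritic cells, was near the limit of detection. It had 10 and 5 counts with EV, 20 and 6 with dnCEBP and 2 and 1 with dnFOS, and both dnFOS libraries were at or under 3 counts. Over the summed counts the ratio of dnFOS to EV was 0.355, with an exact 95% interval from 0.066 to 1.26. The ratio of dnFOS to dnCEBP was 0.214 (interval 0.0415 to 0.699) and that of dnCEBP to EV 1.66 (interval 0.846 to 3.37). These intervals cover counting error only, and PCR reads without molecular identifiers are not independent molecules. A difference from EV was not detectable at this depth.

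Of the 3 members called in dnFOS against EV, ATF3 was also at least 2-fold lower, as were 1.16% of all genes at the same threshold. The median log2 fold change of the 9 genes was 0.06, beside 0.00 for all genes, with 4 below and 5 above 0. In dnCEBP against EV 0 of 9 members were called by edgeR, DESeq2 or limma-voom, and 0 had an unadjusted p under 0.05, as 11.9% of all genes did. All 9 lay below 0 there, with a median of -0.14 against 0.00 for all genes. With library totals in place of TMM factors the median of all genes in dnFOS against EV was 0.102, and 26.2% rather than 51.7% of the called genes were lower. The comparisons with EV share the EV libraries, and both dnFOS comparisons share the dnFOS libraries, so their values are not independent of each other.

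The number of called members in dnFOS against EV was 1 without dnFOS replicate 1, where BATF remained, and 1 without EV replicate 1, where JUNB remained. It was 2 with DESeq2, which gave ATF3 no adjusted p, 1 with limma-voom (JUNB) and 1 with the GC and length trend removed (ATF3). No library or setting gave any called member in dnCEBP against EV.

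**Figure D4:**
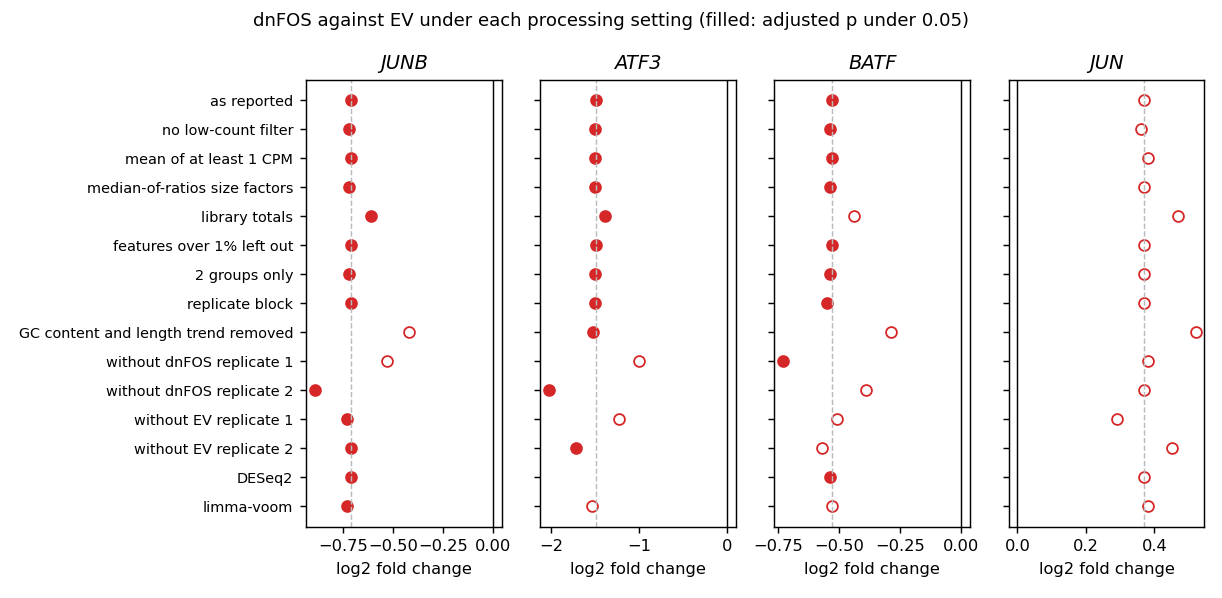
Log2 fold change of JUNB, ATF3, BATF and JUN in dnFOS against EV under each processing setting (rows), filled where the adjusted p was under 0.05, with the reported value as a dashed line. All points of JUNB, ATF3 and BATF lie below 0 and all points of JUN above 0, and the filled points thin out most for BATF. ATF3 has no point for DESeq2, which gave it no adjusted p.

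Other bZIP genes that can pair with or sit beside AP-1 proteins were read from a list of 24, of which 20 were tested. This list and those below were chosen with earlier results of these data known. In dnFOS 4 were called, all lower, where 15% of all genes were called and 7.76% were lower, and the median log2 fold change was -0.26 against 0.00 for all genes. DDIT3, the stress factor CHOP, fell from 72.9 and 64.2 CPM in EV to 24.6 and 22.7 (log2 fold change -1.53 ± 0.11, edgeR adjusted p = 1.16e-10), the lowest value of the list. ATF4, which drives DDIT3 in the integrated stress response, fell from 435 and 413 CPM to 299 and 276 (-0.56 ± 0.08, edgeR adjusted p = 3.5e-05). MAFF, a small MAF protein, fell from 9.98 and 13.8 CPM to 7.03 and 6.86 (-0.77 ± 0.19, edgeR adjusted p = 0.00626). NFE2, an erythroid and megakaryocytic factor, stood at 114 and 109 CPM in EV and 103 and 81.3 in dnFOS (-0.27 ± 0.09, edgeR adjusted p = 0.0496). Without dnFOS replicate 2 the value of NFE2 was -0.12, and it was -0.24 or -0.32 when EV replicate 1 or 2 was left out, none of them called, and without EV replicate 2 MAFF was not called either (-0.53, edgeR adjusted p = 0.134). NFE2 was called under 6 of 14 alternatives, and was also lost with library totals (edgeR adjusted p = 0.225), without features over 1% of a library (0.0522), with the GC and length trend removed (-0.15, 0.236), with DESeq2 (0.074) and with limma-voom (0.0731). MAFF was called under 12 of 14, and was also lost with that trend removed (-0.55, edgeR adjusted p = 0.0524). In dnCEBP 0 of 20 were called by edgeR, DESeq2 or limma-voom, 2 had an unadjusted p under 0.05, as had 11.9% of all genes, and the most abundant genes of the list, ATF4 and CREB1, stood at -0.02 ± 0.08 and 0.12 ± 0.09.

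Kinases and factors that act upstream of FOS and JUN, such as ERK, JNK and p38 kinases, RSK kinases, SRF and the ternary complex factors, formed a list of 24, all tested. In dnFOS 3 were called, 1 lower and 2 higher, where 15% of all genes were called, and the median was -0.06. MAPK3, which encodes ERK1, fell from 19.8 and 20.1 CPM to 12.8 and 15.9 (-0.48 ± 0.15, edgeR adjusted p = 0.029). RPS6KA3, which encodes RSK2, rose from 77.7 and 69.8 CPM to 91.8 and 100.1 (0.38 ± 0.09, edgeR adjusted p = 0.00598). ELK4, a ternary complex factor that acts with SRF at the FOS promoter, rose from 46.8 and 52.5 CPM to 59.5 and 69.1 (0.37 ± 0.10, edgeR adjusted p = 0.0135). MAPK3 was not called without dnFOS replicate 1 (edgeR adjusted p = 0.271) or either EV library (0.105 and 0.0935). RPS6KA3 was not called without dnFOS replicate 2 (0.0692) or EV replicate 2 (0.116), nor ELK4 without dnFOS replicate 2 (0.185) or EV replicate 1 (0.21). With the GC and length trend removed none of these 3 genes was called, MAPK3 being at -0.26 (edgeR adjusted p = 0.243), RPS6KA3 at 0.22 (0.0577) and ELK4 at 0.16 (0.229). MAPK3 was also lost with library totals (edgeR adjusted p = 0.0918). In dnCEBP 0 of 24 were called by edgeR, DESeq2 or limma-voom, 4 had an unadjusted p under 0.05, against 11.9% of all genes, and the most abundant, RPS6KA1 and MAPK14, stood at 0.05 ± 0.09 and 0.15 ± 0.08.

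Of 12 immediate early genes that are commonly induced together with FOS and JUN, 10 were tested, and 3 were called in dnFOS, all lower, with a median of -0.48. Of all genes 15% were called there and 7.76% were lower. NR4A1, a nuclear receptor, fell from 19.6 and 22.8 CPM to 9.11 and 11.2 (-1.07 ± 0.16, edgeR adjusted p = 2.46e-05). EGR1, a zinc finger factor, fell from 17.6 and 16.9 CPM to 8.33 and 10.7 (-0.87 ± 0.17, edgeR adjusted p = 0.000879). EGR2 stood at 2.47 and 2.97 CPM in EV and 1.24 and 1.45 in dnFOS (-1.03 ± 0.35, edgeR adjusted p = 0.0462), a call lost without any 1 of the 4 libraries, with adjusted p from 0.0772 without EV replicate 1 to 0.213 without dnFOS replicate 1. EGR2 was called under 4 of 14 alternatives. All 10 genes lay below 0 in dnFOS, whereas in dnCEBP 5 lay below and 5 above. There 0 were called by edgeR, DESeq2 or limma-voom, and 1 had an unadjusted p under 0.05, where 11.9% of all genes had. The most abundant of them, IER2 and IER5, stood at -0.14 ± 0.12 and 0.08 ± 0.12 in dnCEBP.

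Genes that textbooks name as direct AP-1 targets formed a list of 28, of which 22 were tested and 11 were called in dnFOS, all lower, with a median of -0.54, beside the 15% of all genes called and 7.76% lower. The list was drawn up with earlier results of these data known, so this count is a description and not independent support. CXCL8, a neutrophil chemokine, fell most, from 249 and 261 CPM to 46.5 and 51.9 (-2.38 ± 0.09, edgeR adjusted p = 1.27e-17). CCL2, a monocyte chemokine, fell from 16.8 and 14.3 CPM to 7.81 and 7.63 (-1.01 ± 0.17, edgeR adjusted p = 0.000128). PTGS2, the inducible cyclooxygenase, fell from 10.7 and 12.5 CPM to 5.2 and 6.28 (-1.03 ± 0.19, edgeR adjusted p = 0.000379). In each of these 3 genes both dnFOS libraries lay below the other 4. TIMP1, an inhibitor of matrix proteases, PLAU, the urokinase, and FTH1, the ferritin heavy chain, also fell, by 0.72 ± 0.09, 0.55 ± 0.11 and 0.52 ± 0.08 on the log2 scale. The other 5, named here after their values were seen, were VIM, LMNA, PLAUR, KRT18 and MMP9, with log2 fold changes from -2.26 to -0.43. Without EV replicate 1 the count was 7, with VIM, PLAUR, KRT18 and MMP9 no longer called. PLAUR and KRT18 were also lost without dnFOS replicate 2 (edgeR adjusted p = 0.0732 and 0.109), and MMP9 without dnFOS replicate 1 (0.356) or EV replicate 2 (0.058). KRT18 and MMP9 were not called with library totals (edgeR adjusted p = 0.0665 and 0.0567) or with the GC and length trend removed (0.0636 and 0.0784). MMP9, at -2.26, was near the floor, with 1 and 5 counts with dnFOS, 25 and 11 with dnCEBP and 30 and 24 with EV.

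In dnCEBP 1 of the 22 was called, TNF, a macrophage cytokine, which was higher, where 1.07% of all genes were called. An unadjusted p under 0.05 in edgeR was found for 6 of the 22, where 11.9% of all genes had one. Of these 6, TNF, TIMP1, VIM and PTGS2 were higher, and PLAU (-0.38 ± 0.10, edgeR adjusted p = 0.0688) and IL2RA were lower. TNF had 6.75 and 3.98 CPM with EV, 10.1 and 9.79 with dnCEBP and 3.84 and 4.64 with dnFOS. Both dnCEBP libraries lay above the other 4, and the log2 fold change was 0.89 ± 0.21 (edgeR adjusted p = 0.0306). The call was lost without dnCEBP replicate 1 (adjusted p = 0.0894 in edgeR), without dnCEBP replicate 2 (0.209) and without EV replicate 2 (0.412, at a log2 fold change of 0.56). The median of the list in dnCEBP was 0.09.

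**Figure D5:**
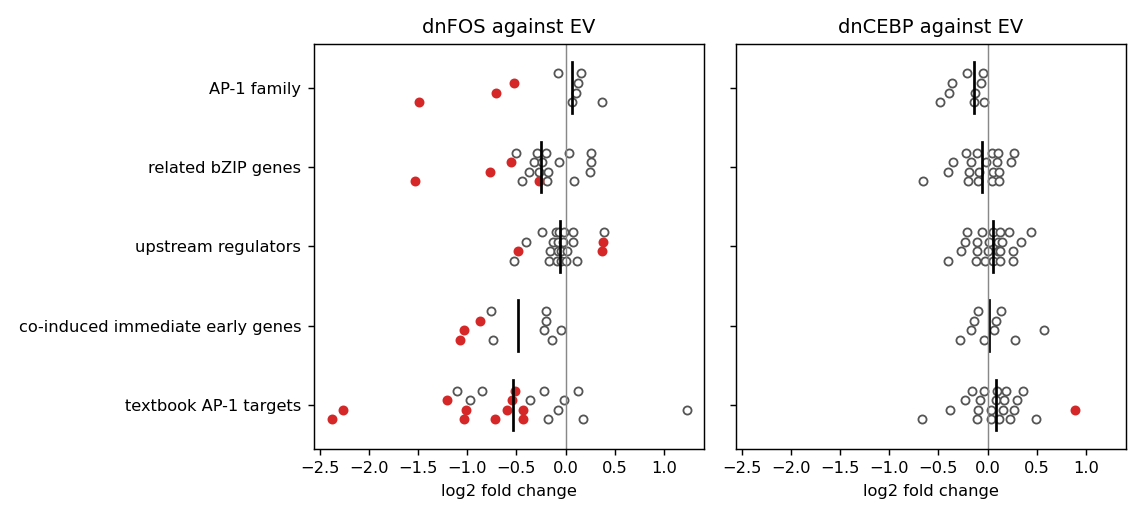
Log2 fold change against EV of the tested genes of the AP-1 family and of 4 related lists, in dnFOS (left) and dnCEBP (right), with filled red points for an adjusted p under 0.05 and a black line at each list's median. In dnFOS the medians of the target and immediate early lists lie at -0.54 and -0.48, and in dnCEBP the filled point is TNF. The lists were chosen with earlier results of these data known.

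Over the 6 libraries, the genes whose log2 CPM was most like that of each of 4 members were sought among 8318 genes with a mean of at least 10 CPM. JUNB was most like MED15, REEP4 and TOLLIP, with Pearson r of 0.978, 0.991 and 0.989, and all of these were called lower in dnFOS (log2 fold changes of -0.71, -0.46 and -0.49). Their lower level follows largely from choosing them by likeness to JUNB, and 7.76% of all genes were called lower there. ATF3 was most like CYTH1, SERPINE2 and SEC11A (r of 0.988, 0.984 and 0.982), with log2 fold changes from -0.25 to -0.19 in dnFOS, none of them called. JUN was most like PATZ1, EWSR1 and MRS2 (r of 0.990, 0.983 and 0.982) and FOS most like ZNF283, ZNF182 and MARF1 (r of 0.986, 0.979 and 0.977). These are descriptions over 6 libraries in 3 groups, and the points share library depth and group. Each r is among the highest of 8318 over 6 points and so runs high by selection, to an extent that was not tested.

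Of the 7 tested blast markers, ANPEP, MPO and PTPRC were called lower in dnFOS, with log2 fold changes of -0.58 ± 0.09, -0.56 ± 0.10 and -0.33 ± 0.08. CD33, KIT, CD38 and CD34 were not called, at -0.01, -0.02, -0.14 and -0.22. Of the 7 tested markers of other cell types, KRT8, CD3D and NKG7 were called lower too, at -0.80 ± 0.19, -0.28 ± 0.09 and -0.39 ± 0.13. NCAM1, HBB, EPCAM and PECAM1 were not called, at 0.49, -0.73, 0.21 and -0.22. Of all genes 15% were called in dnFOS and 7.76% were lower. PTPRC and KRT8 were not called without EV replicate 1 (edgeR adjusted p = 0.0829 and 0.148), and CD3D and NKG7 were not called without dnFOS replicate 2 or either EV library (0.0512 to 0.288). In dnCEBP MPO, the myeloid peroxidase, fell most, by 1.89 on the log2 scale from 239 and 194 CPM in EV to 63.4 and 52.9, and ANPEP was called lower (-0.37 ± 0.09), a call lost without dnCEBP replicate 2 or either EV library, while JUNB, ATF3 and BATF were not called there. MPO and ANPEP were 2 of 7 tested blast markers called in dnCEBP, beside 0 of 7 other markers and 1.07% of all genes. In bulk RNA, fewer cells of a type and less RNA per cell cannot be told apart.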

How the data were processed

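RNA-seq of total RNA depleted of ribosomal RNA was analysed in 6 KO52 libraries, 2 each of EV, dnCEBP and dnFOS, grouped by their titles. Raw gene counts were deposited in 1 file per library, and the authors made them from paired-end reads of 75 bases, with Trimmomatic, HISAT2 and featureCounts on hg38 per the submitters' processing notes. Versions, the counting annotation and the use of strand were not given in the sources used here.

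Gene IDs were matched to GENCODE 29 (58394 of 60612), whose GRCh38 coordinates and merged exon lengths are used. Counts were fitted with edgeR 4.0.16 in R 4.3.3 (filterByExpr minimum count 10, 15395 of 27870 genes with any count, TMM factors, robust quasi-likelihood fit with 1 mean per group over all 6 libraries, 3 residual degrees of freedom). Tests were two-sided, with Benjamini-Hochberg adjustment over all genes tested. CPM use total counts times TMM factors, log2 CPM a prior count of 2, and intervals the fit's standard error and degrees of freedom. DESeq2 1.42.0, limma 3.58.1, other filters and scalings, a replicate block and leaving out each library were alternatives.

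Members and lists were chosen with earlier results of these data known. Named were all members, the called genes of each list (up to 6 per list and comparison, otherwise the 2 most abundant) and the 3 genes most like JUN, FOS, JUNB and ATF3. Correlations among members themselves are not given, since the libraries fall into groups.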

Additional observations from a re-analysis of the deposited data

How the results depend on the processing

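Of 377 member fold changes recomputed under the alternatives, 333 kept their direction and side of the threshold, 17 kept their direction but lost the call, 6 gained one and 21 reversed, none of the reversed ones called. The reversals were of values near 0. With library totals, JUND was 0.023 in dnFOS against EV and 0.098 in dnFOS against dnCEBP. With the GC and length trend removed, JUND was 0.30, 0.24 (dnCEBP against EV) and 0.061 (dnFOS against dnCEBP), and BATF 0.041 in dnCEBP against EV. Leaving out 1 library gave ranges in dnFOS against EV from -0.024 to 0.35 for FOS, -0.094 to 0.36 for FOSB, -0.15 to 0.35 for FOSL1, -0.045 to 0.17 for FOSL2 and -0.15 to 0.006 for JUND. In dnCEBP against EV they were -0.31 to 0.075 for FOS, -0.36 to 0.10 for FOSB, -0.15 to 0.011 for FOSL2, -0.59 to 0.072 for JUN, -0.17 to 0.045 for JUND and -0.23 to 0.12 for BATF, and JUND in dnFOS against dnCEBP ranged from -0.12 to 0.089. Called members in dnFOS against EV numbered 3, but 1 with limma-voom or the GC and length trend removed, and 1 to 3 without 1 library. In dnFOS against dnCEBP 1 was called, 2 with a mean of at least 1 CPM or 2 groups only, 0 with DESeq2 or limma-voom, and 0 to 2 without 1 library, while with library totals or the trend removed the 1 was JUN, not BATF. Called genes in all numbered 2309, 165 and 2259 in dnFOS against EV, dnCEBP against EV and dnFOS against dnCEBP. Without 1 library they ranged from 972 to 2426, 33 to 314 and 1182 to 2262. The dnCEBP against EV count was 255 with no low-count filter, 297 with 2 groups only and 262 with the GC and length trend removed. AP-1 targets called in dnCEBP numbered 1, 0 with library totals or DESeq2, 3 with 2 groups only, 4 with the GC and length trend removed, and 0 to 3 without 1 library. In dnFOS they ranged from 7 to 12 without 1 library, related bZIP genes from 2 to 7 and upstream regulators from 1 to 4, and in dnCEBP related bZIP genes from 0 to 1. Upstream regulators in dnCEBP numbered 1 with the GC and length trend removed. The causes were not tested. Library totals raised the median of all genes to 0.102 in dnFOS against EV and moved the lower share of calls from 51.7% to 26.2%, and in dnFOS against dnCEBP to 0.145 and from 53.4% to 25.4%. With the replicate block, called members numbered 3, 0 and 2, all genes 3172, 488 and 3013, related bZIP genes 7 in dnFOS and 1 in dnCEBP, upstream regulators 5 in dnFOS and AP-1 targets 4 in dnCEBP. The labels do not say what a shared number means, and same-numbered libraries deviated together little, with correlations from 0.017 to 0.088. Leaving out division by length moved all 21 group means of the subunit shares by more than their SD. FOSL1 and ATF3 had 8 to 82 counts per library.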
